A study of Mus musculus with 2 samples.

Results

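The 36 genes described here make and regulate the cell's cholesterol and fatty acids, and they were taken by name from the 43346 Ensembl genes of each deposited gene table. They form 3 groups: 17 genes of the sterol pathway, 14 of the fatty acid pathway and 5 regulators of the sterol regulatory element-binding proteins (SREBPs). Total RNA was sequenced from whole lung of healthy B6NCrl mouse embryos at embryonic day 15.5, a stage of airway branching, starting from 10 ng of RNA longer than 200 nt with spike-ins added. There is 1 group: the lungs of 78 embryos of both sexes gave the library called replicate 1 (40395849.9 estimated reads), and those of 62 others gave replicate 2 (36601054.1). No treatment, genotype contrast or other age was sampled here, so the comparisons are between genes, between transcripts and between the 2 pools. Levels are TPM, the length-scaled transcript share, which can be set side by side between genes. A level is given for replicate 1 and then replicate 2, or as mean ± SD (n = 2). The members were chosen by name and not by level.

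Cholesterol and fatty acids share a starting point, acetyl-CoA in the cytosol, and a common set of transcription factors. SREBPs are made as membrane proteins of the endoplasmic reticulum. When sterols are low the escort protein SCAP carries them to the Golgi, where they are cleaved and the released part enters the nucleus, and INSIG proteins hold the complex back when sterols are plentiful. SREBP-2 is best known for activating sterol genes and SREBP-1c for fatty acid genes, while SREBP-1a activates both. In the lung, fatty acid synthesis later serves the phospholipids of surfactant, which the type II cells of the alveoli make late in gestation.

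All 36 genes reached 1 TPM or more in both libraries, against 60.7% of the protein-coding genes in the tables. At 10 TPM or more in both libraries stood 30 of the 36, against 40.6% of protein-coding genes. At 100 TPM or more stood 4, a limit at which the share of protein-coding genes was not counted. The median of the 36 genes was 38.1 ± 0.141 TPM, where the detected protein-coding genes had medians of 20.3 in replicate 1 and 19.2 in replicate 2. Among all protein-coding genes 21 of the 36 lay at percentile 75 or higher in both libraries, and Scd1 and Acacb were the 2 that lay below percentile 50. Summed, the 36 genes held 0.195% and 0.185% of the TPM. Estimated reads for a gene on the list ran from 162 to 26799, but short transcripts with few reads can hold much of a level. The transcript Acacb-205 held 28.4% and 23.9% of the TPM of Acacb on 8.91 and 4.93 estimated reads. Because whole lung was sequenced, fewer cells that express a gene and less RNA per cell cannot be told apart.

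**Figure D1:**
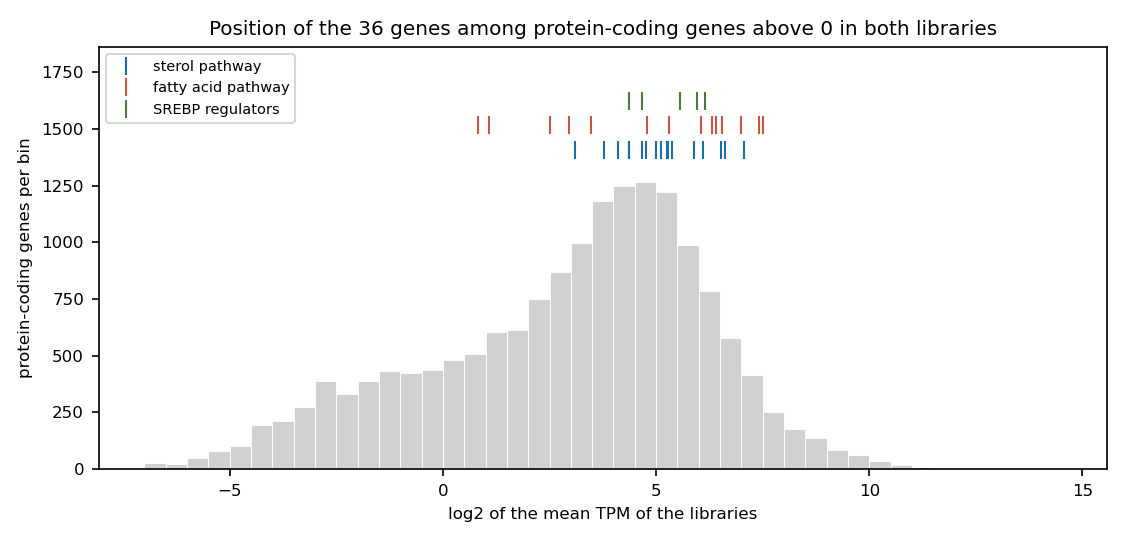
Histogram of the log2 mean TPM of protein-coding genes above 0 in both libraries (grey, genes per bin), with a tick for each of the 36 genes by group. Most ticks lie to the right of the peak of the histogram, while Scd1 and Acacb lie to its left.

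The sterol pathway runs from acetyl-CoA through mevalonate and squalene to cholesterol. Its 17 genes had a median of 36.6 TPM in replicate 1 and 32.6 in replicate 2, and their mean levels ran from 8.62 to 133.7 TPM, a 15.5-fold range. Fdps, which joins isoprene units into farnesyl pyrophosphate, was the most abundant (chromosome 3, 89093588 to 89101959 on GRCm38). Its level was 134 TPM in replicate 1 and 134 in replicate 2, and in both libraries it stood above Acat2 with separate intervals. Acat2, the cytosolic thiolase that condenses acetyl-CoA in the first step (chromosome 17, 12942890 to 12960747), was at 98.3 and 98.0 TPM. Hmgcs1, which makes HMG-CoA (chromosome 13, 119690379 to 119708260), was at 89.9 and 94.1 TPM, and its interval met that of Acat2 in replicate 2. The lowest gene was Hsd17b7, a sterol ketoreductase (chromosome 1, 169949535 to 169969241), at 9.02 and 8.22 TPM. Order is called different here when both libraries give it and the deposited TPM intervals overlap in neither. By that rule 6 of the 16 neighbouring pairs in this order differed.

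Levels along the pathway were uneven. The 7 genes up to farnesyl pyrophosphate had a median of 61.8 and 57.0 TPM, and the 10 genes from squalene on had 26.3 and 26.2, a division made after the values were seen. Among the first set, Mvk and Pmvk, kinases that phosphorylate mevalonate and its phosphate, were at 34.6 ± 2.82 and 41.4 ± 1.53 TPM. Mvd, the decarboxylase that yields isopentenyl pyrophosphate, was the lowest of these at 20.6 ± 0.163, and Idi1, which isomerises that product, was at 59.4 ± 3.39. In the second set Sqle, the epoxidase that commits squalene to sterols, led with 69.0 ± 0.332 TPM. Fdft1, the squalene synthase gene, and Cyp51, the lanosterol demethylase gene, were close to each other at 39.0 ± 0.714 and 38.2 ± 0.488, with overlapping intervals in both libraries. Ebp, Sc5d and Dhcr7, which act on the sterol ring near the end, were at 31.7 ± 4.51, 27.0 ± 0.891 and 25.5 ± 0.764. Lss, which closes squalene epoxide into lanosterol, and Nsdhl, which acts with Hsd17b7 in demethylation, were at 20.5 ± 1.78 and 17.2 ± 0.735. Protein-coding transcripts held 61.6% of the TPM of Lss in replicate 1 and 45.4% in replicate 2. Tm7sf2, a sterol reductase gene, was at 16.2 TPM in replicate 1 and 11.4 in replicate 2.

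Further sterol genes outside the 36 spanned a wide range. Of 9 such genes 8 were detected, 6 of them at 10 TPM or more. Pgrmc1, a haem-binding partner of sterol demethylase, was highest at 202 and 195 TPM, followed by Acat1, the mitochondrial thiolase gene, at 98.2 and 92.1. The lowest was Idi2, a second isomerase gene, at 0.050 and 0 TPM. Named after its values were seen, Msmo1, a sterol methyl oxidase gene, was at 49.3 and 52.0 TPM.

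**Figure D2:**
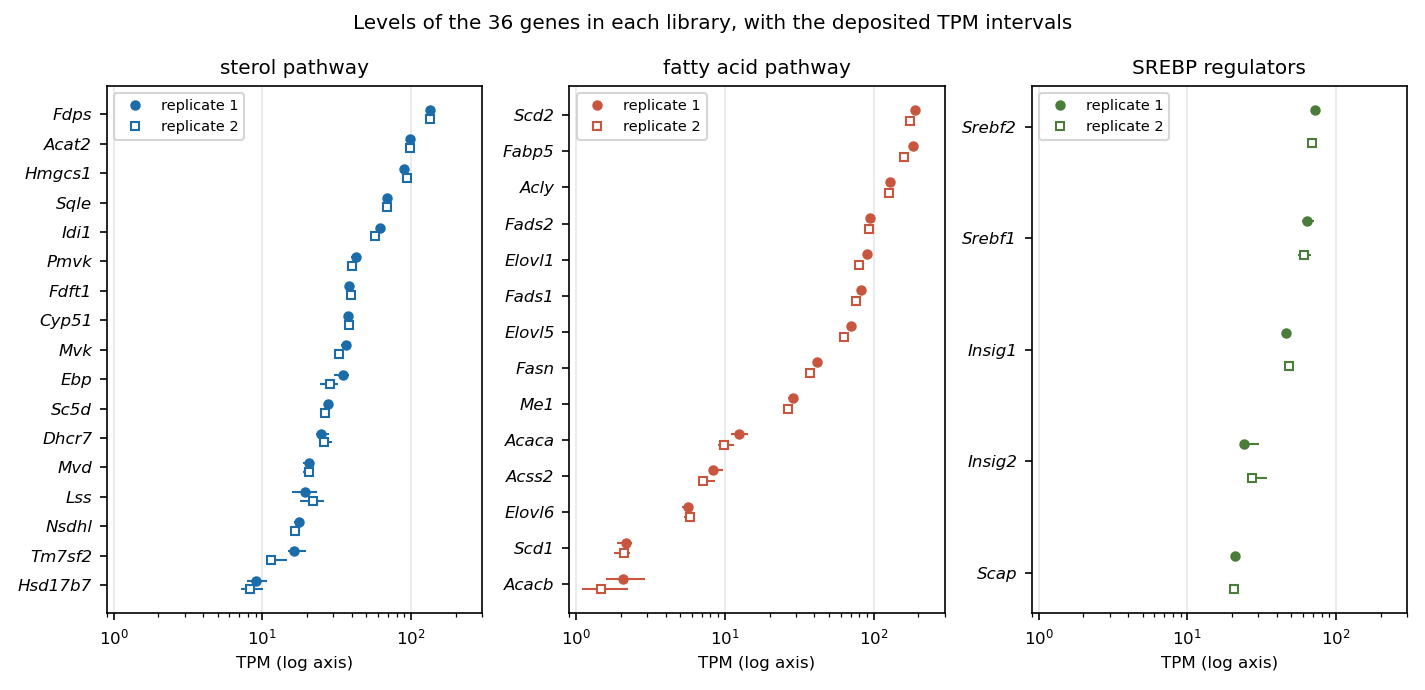
TPM (log axis) of each of the 36 genes in replicate 1 (filled circles) and replicate 2 (open squares), with lines for the deposited TPM intervals, by group and ordered by mean level. Fatty acid genes span from Acacb at 1.76 to Scd2 at 183 TPM, a wider range than that of the sterol genes or of the regulators.

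The fatty acid pathway covers the supply of acetyl-CoA and NADPH, the synthesis of palmitate and its lengthening and desaturation. Its 14 genes had a median of 56.0 TPM in replicate 1 and 50.5 in replicate 2, and mean levels from 1.76 to 183 TPM, a 104-fold range. Scd2, a stearoyl-CoA desaturase gene (chromosome 19, 44293674 to 44306864), led with 189 and 176 TPM. Fabp5, which codes for a fatty acid binding protein and not an enzyme (chromosome 3, 10012548 to 10016607), followed with 183 and 159. Their intervals overlapped in replicate 1, so their order was not different by the rule. Acly, which cleaves citrate to cytosolic acetyl-CoA (chromosome 11, 100476353 to 100528000), came next at 129 and 126 TPM. Acacb, the smaller contributor of the acetyl-CoA carboxylase pair (chromosome 5, 114146535 to 114250761), was lowest by mean at 2.06 and 1.46 TPM, though not different from Scd1 by the rule. Of the 13 neighbouring pairs in this order 9 differed.

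Among the genes of supply, Acly stood 16.7 ± 1.56 times above Acss2, which makes acetyl-CoA from acetate and was at 8.29 and 7.11 TPM. Me1, a malic enzyme gene that yields NADPH, was at 27.5 ± 1.44. At the core of synthesis Fasn, the fatty acid synthase gene (chromosome 11, 120805846 to 120824547), was at 41.9 and 37.4 TPM. Acaca, whose product makes malonyl-CoA for it, was at 12.4 and 9.83 TPM (chromosome 11, 84129672 to 84401651). It stood 6.38 ± 0.498 times above Acacb, whose product lies at mitochondria and is known for restraining fatty acid oxidation. The 3 carboxylase and synthase genes had a median of 12.4 and 9.83 TPM, below that of the 4 desaturase genes at 88.9 and 84.8, by a sorting of roles made after the values were seen.

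Genes of chain modification ranged from near equality to a large gap within a family. Scd2 stood 85.9 ± 2.38 times above Scd1 (chromosome 19, 44394455 to 44407879), which was at 2.16 and 2.09 TPM and is the main form of adult liver and fat. Both put the first double bond into saturated acyl chains. The other 2 mouse genes of this family, named after their values were seen, were also low, Scd3 at 0.110 and 0.190 TPM and Scd4 at 0.300 and 0.130. Fads1 and Fads2, front-end desaturases that make polyunsaturated chains, were close to each other with 83.0 and 76.8 TPM for Fads1 and 94.8 and 92.9 for Fads2. Their ratio of 1.18 ± 0.0477 still counted as different, since the intervals were apart in both libraries. Elovl5, which lengthens polyunsaturated chains, was at 70.0 and 63.6 TPM, and Elovl1, which lengthens very long saturated chains, at 90.5 and 79.8. Elovl6, which lengthens palmitate, was at 5.61 and 5.81 TPM, so that Elovl5 stood 11.7 ± 1.09 times and Elovl1 14.9 ± 1.70 times above it.

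Pairs that join the list to related genes outside it were fixed with earlier results of these data known. Acat2 and Acat1 did not differ by the rule, with a ratio of 1.03 ± 0.0441 and overlapping intervals in both libraries. Fabp5 stood 17.7 ± 3.76 times above Fabp4, the binding protein gene of fat cells and of some endothelium, which was at 12.2 and 7.83 TPM. Defining markers of fat cells were at or near 0: none of 6 was detected, their sum was 0.220 TPM in replicate 1 and 0.120 in replicate 2, and Lep and Cfd were at 0 in both.

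Other genes of fatty acid metabolism gave the setting. Of 19 further genes of synthesis 16 were detected, with a median of 40.0 and 36.4 TPM. Tecr, the reductase of chain lengthening, led with 370 and 363 TPM, followed by Cyb5a, the electron donor of desaturases, with 326 and 334, while Elovl3 was lowest at 0.030 in each library. Of 8 genes of activation and binding all were detected, with Acsl5 at 69.4 and 65.7 TPM, Acsl3 at 38.9 and 38.5 and Acss1 lowest at 7.39 and 6.74. Of 11 genes of sterol uptake, transport and storage 10 were detected. Npc2, a lysosomal sterol carrier gene, led there with 135 and 126 TPM, followed by Scarb1, a lipoprotein receptor gene, with 55.3 and 51.3, and Soat2, an acyltransferase gene known from liver and gut, was lowest at 0.290 and 0.170.

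The order of the sterol and fatty acid groups depended on the summary used. By medians the sterol genes stood at 0.650 ± 0.00587 times the fatty acid genes. By geometric means the ratio was 1.21 ± 0.0527, the opposite order, and by medians without Fabp5 it was 0.872. The fatty acid group had both the higher middle and the lower end of the levels, as the plot of levels by group shows. Measured by sums, the sterol genes held 778 and 763 TPM and the fatty acid genes 941 and 865.

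The regulators were all expressed within a 3.41-fold range. Their median was 45.8 TPM in replicate 1 and 48.2 in replicate 2. Srebf2, which codes for SREBP-2 (chromosome 15, 82147181 to 82205379), was at 72.0 and 69.4 TPM. Srebf1, which codes for SREBP-1a and SREBP-1c (chromosome 11, 60199089 to 60222581), was at 63.8 and 60.9. At the gene level their ratio was 1.13 ± 0.00719 and the intervals overlapped in both libraries. Insig1, an anchor gene that SREBPs themselves induce (chromosome 5, 28071363 to 28078662), was at 45.8 and 48.2 TPM. Insig2 (chromosome 1, 121304353 to 121332589) was at 23.9 and 27.4, so that Insig1 stood 1.84 ± 0.113 times above it. Scap, the escort gene (chromosome 9, 110333288 to 110384950), was lowest at 20.97 and 20.5 TPM.

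Among 11 further regulators of lipid genes 10 were detected. Mid1ip1, whose product promotes the assembly of acetyl-CoA carboxylase, led with 101 and 96.4 TPM. Mbtps1, the protease gene that makes the first cut in SREBPs, was at 100.03 and 94.5. Thrsp, a relative of Mid1ip1 known from liver and fat, was lowest at 0.740 and 1.14 TPM.

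Transcripts changed the picture of Srebf1. Its main full-length transcript, Srebf1-201, begins at chromosome 11 position 60220604 on the minus strand, and its product of 1134 residues opens with the amino terminus of SREBP-1a. Srebf1-207 begins at 60210465 and opens with that of SREBP-1c. Srebf1-201 held 42.0% and 42.7% of the gene's TPM, or 26.8 and 26.0 TPM, and Srebf1-207 held 13.8% and 14.2%, or 8.83 and 8.62 TPM. The SREBP-1a transcript thus stood 3.02 ± 0.0085 times above the SREBP-1c transcript, with separate intervals in both libraries. A further 32.2% and 32.5% of the TPM was assigned to Srebf1-204, a processed transcript of 367 nt that carries no coding sequence. Short transcripts weigh heavily in TPM, and by reads Srebf1-201 held 73.1% and 73.2%. Against Srebf1-201 alone, Srebf2 stood 2.68 ± 0.0171 times higher, and against the SREBP-1a and SREBP-1c transcripts together 2.01 ± 0.0143 times. The 2 coding transcripts share most exons and also differ at their 3′ ends, where Srebf1-207 is incomplete in the annotation, so their split rests on the estimate in the deposited tables.

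**Figure D3:**
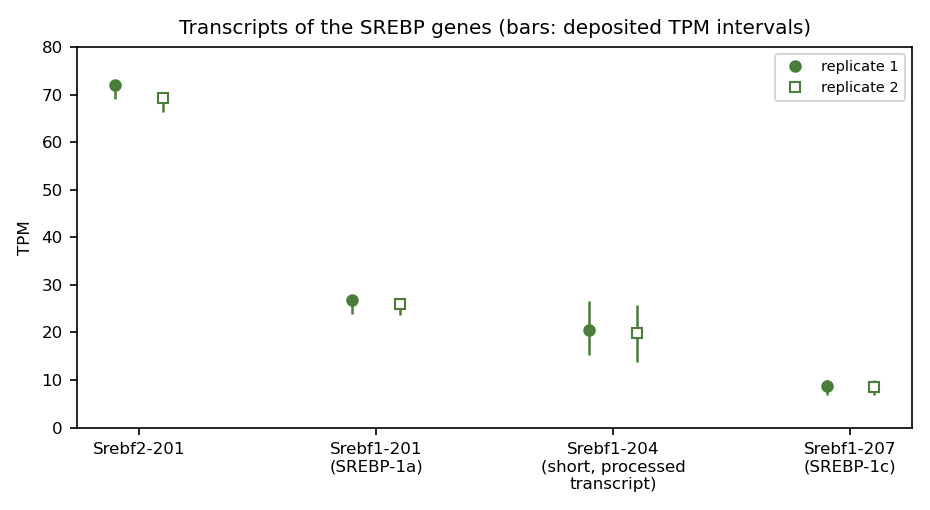
TPM of the single Srebf2 transcript and of 3 Srebf1 transcripts in replicate 1 (filled circles) and replicate 2 (open squares), with lines for the deposited intervals. Srebf2-201 stands near 72.0 and 69.4 TPM, above each Srebf1 transcript, and Srebf1-201 stands above Srebf1-207.

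Most other genes on the list were carried by a single form. In 22 of the 36 the leading transcript held 90% or more of the TPM in both libraries, and 12 of these have 1 transcript in the tables. In 8 genes at least 2 transcripts held 20% or more in both libraries. Acly was split between Acly-207 with 55.0% and 52.5% and Acly-203 with 41.0% and 44.9%, both protein-coding and of 4162 and 4426 nt. Elovl1 was split between Elovl1-207 with 42.8% and 44.3% and Elovl1-203 with 33.0% and 30.6%. For Insig2 the leading Insig2-201 held 58.2% and 45.7% and Insig2-208 held 22.8% and 20.3%. In Hsd17b7 the noncoding Hsd17b7-204 took 44.0% and 29.9%, beside 49.2% and 62.9% for Hsd17b7-201. Ebp-201 held 36.7% and 47.4%, Ebp-203 39.0% and 30.2%, and the retained-intron form Ebp-202 22.3% and 22.3%. For Tm7sf2 the leading Tm7sf2-201 held 31.6% and 36.3% and Tm7sf2-205 28.2% and 27.4%. Acacb was the 1 gene led by a form without a coding sequence, the retained-intron Acacb-204 with 30.7% and 38.2%, beside Acacb-205 with 28.4% and 23.9%. Counting protein-coding transcripts alone, Acacb had 1.17 and 0.660 TPM and the ratio of Acaca to Acacb became 11.8, and Srebf2 stood 1.94 times above Srebf1.

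**Figure D4:**
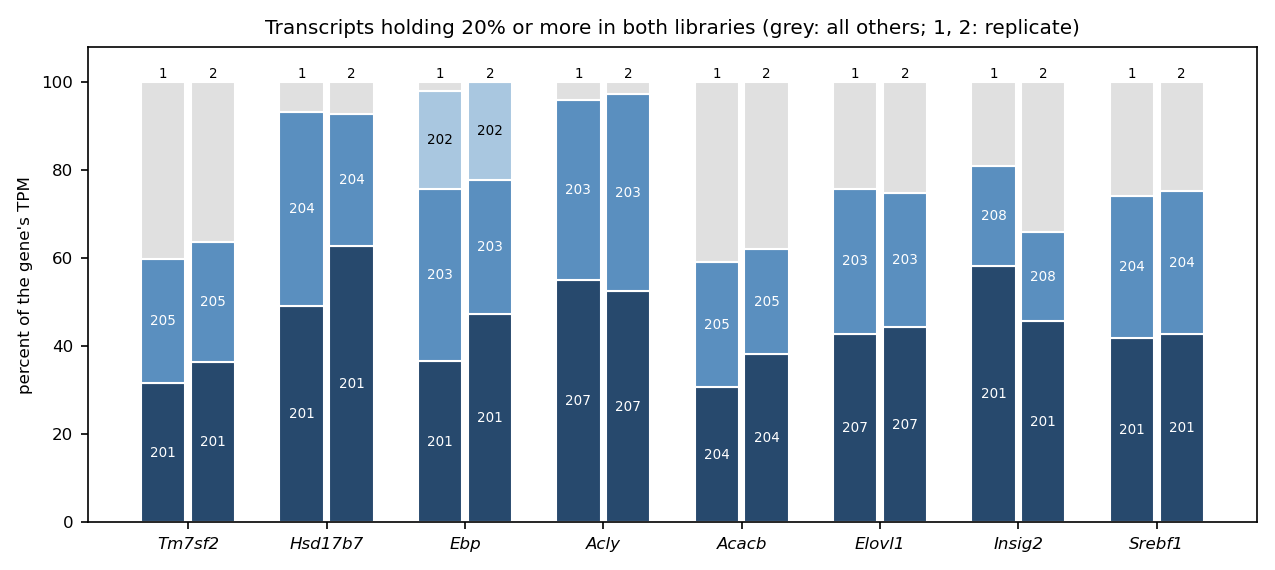
Percent of the gene's TPM held by each transcript with 20% or more in both libraries, for the 8 genes with at least 2 such transcripts; paired bars are replicate 1 and replicate 2 and numbers in the bars are transcript name suffixes. Acly and Srebf1 kept shares within a few percent between the libraries, while those of Hsd17b7-201, Hsd17b7-204, Ebp-201 and Insig2-201 differed by 10 points or more.

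The 36 genes lie on 16 chromosomes, with 5 on chromosome 19. Neighbouring list genes lay less than 1 Mb apart in 4 cases. Fads2 and Fads1 are 81.1 kb apart on chromosome 19 with opposite strands, Scd2 and Scd1 87.6 kb apart there, also on opposite strands, Acacb and Mvk 194 kb apart on chromosome 5, and Fdps and Pmvk 353 kb apart on chromosome 3. Levels within the close pairs ranged from the Fads genes, 1.18-fold apart, to the Scd genes, 85.9-fold apart, with Acacb at 1.76 and Mvk at 34.6 TPM, and Fdps at 134 and Pmvk at 41.4, in between. Exons of other genes overlap some members, and use of strand in counting is not stated. In the annotation, 1124 exon bases of Fdps are shared with Gm43738 on the same strand, a gene that has no level in the deposited tables. Scap shares 985 exon bases with 5830462I19Rik on the opposite strand, a gene at 0.390 and 0.340 TPM. Among overlapping genes at higher levels, Ctsb shares 774 exon bases with Fdft1 on the opposite strand and was at 131 and 124 TPM. Vps51 shares 532 bases with Tm7sf2 on the same strand and was at 67.6 and 62.7 TPM. The deposited posterior SD of the estimated reads was 0.0804% and 0.0693% of their posterior mean for Fdps and 0.142% and 0.143% for Fdft1. For Tm7sf2 it was 2.86% and 3.65%. For Fdps this SD cannot register reads of Gm43738, since that gene has no level in the deposited tables. The effect of the overlaps on the levels of these genes is uncertain and was not tested.

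The sequences before the start sites are shown because SREBPs bind promoters together with the factors NF-Y and Sp1, whose motifs are the CCAAT box and the GC box. RefSeq promoter windows on GRCm38.p6 were found for 29 of the 36 genes, in 39 windows. The 7 genes without an entry are Fdps, Fdft1, Sqle, Scd1, Scd2, Fads1 and Fabp5. In the 250 bases before each start, 4 motifs were sought on both strands, the sterol regulatory element TCACNCCAC with N as any base, the E-box CACGTG, the CCAAT box CCAAT and the GC box GGGCGG. The sterol regulatory element in this strict spelling was in 1 of the 39 windows, that of Hmgcs1, and in 1.05% of all 32851 windows. The CCAAT box was in 24 of the 39 windows, or 61.5%, against 33.8% of all windows and 35.0% of those of detected protein-coding genes. By genes it was in 13 of 14 sterol genes, 6 of 10 fatty acid genes and 4 of 5 regulators, against 37.5% of all genes and 40.4% of detected protein-coding genes. A gene counted if any of its windows held the box, whether or not that start was in use. In Insig2, Pmvk and Me1 only the window of a little-used start held it. Transcripts starting within 100 bases of that start had 0 TPM in both libraries for Insig2 and Pmvk. For Me1 they had 0 TPM in replicate 1 and 0.28 in replicate 2. Counts limited to starts in use were not made. The GC box was in 27 windows, or 69.2%, against 32.7% of all windows and 57.4% of those of detected genes. The E-box was in 6 windows, or 15.4%, against 6.02% and 8.04%. These are matches of letters, and looser forms of the motifs were not sought.

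Upstream stretches are printed 5′ to 3′ on the gene's strand in lower case, with the 4 motifs of either strand in capitals, and stop where an annotated exon begins. Hmgcs1 was chosen after the search as the gene with the sterol regulatory element and Insig1 as a regulator that holds the other 3 motifs, and Srebf1 because its start sites divide SREBP-1a from SREBP-1c. They are chr13:119690101-119690350 (plus strand) for Hmgcs1, chr5:28071162-28071362 (plus) for Insig1, chr11:60220628-60220877 (minus) for the SREBP-1a start and chr11:60210472-60210721 (minus) for the SREBP-1c start.
Hmgcs1: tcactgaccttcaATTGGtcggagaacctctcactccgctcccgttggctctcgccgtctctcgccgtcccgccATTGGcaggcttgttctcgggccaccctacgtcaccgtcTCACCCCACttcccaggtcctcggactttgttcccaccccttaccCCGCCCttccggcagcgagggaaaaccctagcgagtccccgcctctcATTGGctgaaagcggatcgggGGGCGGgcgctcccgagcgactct
Insig1: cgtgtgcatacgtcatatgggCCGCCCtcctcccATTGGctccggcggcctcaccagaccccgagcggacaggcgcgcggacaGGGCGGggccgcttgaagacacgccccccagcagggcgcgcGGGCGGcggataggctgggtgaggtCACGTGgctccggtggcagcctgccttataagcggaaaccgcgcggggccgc
Srebf1 SREBP-1a start: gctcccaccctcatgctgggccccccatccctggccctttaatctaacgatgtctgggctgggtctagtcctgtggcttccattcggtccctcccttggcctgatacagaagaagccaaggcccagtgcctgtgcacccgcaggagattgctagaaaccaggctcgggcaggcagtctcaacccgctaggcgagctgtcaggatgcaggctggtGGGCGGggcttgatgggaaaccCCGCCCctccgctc
Srebf1 SREBP-1c start: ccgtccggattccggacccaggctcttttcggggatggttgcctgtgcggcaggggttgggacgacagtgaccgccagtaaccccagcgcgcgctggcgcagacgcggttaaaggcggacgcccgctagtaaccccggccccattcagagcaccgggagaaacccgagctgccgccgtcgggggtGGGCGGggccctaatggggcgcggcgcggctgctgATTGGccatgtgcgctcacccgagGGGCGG
In Hmgcs1 the sterol regulatory element lies 137 to 129 bases before the RefSeq start, between CCAAT boxes on the minus strand at 176 to 172 and 45 to 41 bases. Insig1 holds its E-box at 101 to 96 bases before the start. The SREBP-1a start has 2 GC boxes, at 36 to 31 and 14 to 9 bases, and no CCAAT box, whereas the SREBP-1c start has 2 GC boxes and a CCAAT box at 30 to 26 bases. Of the 29 genes, 23 had a RefSeq start within 100 bases of the start of their leading transcript.

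Between the replicate pools the 36 genes differed little. A gene was called apart when its mean was 5 TPM or more, its level differed 2-fold or more after TMM scaling and its intervals, with the same scaling put on their bounds, were separate. Of the 34 list genes with that mean 0 were called, against 0.355% of 11261 genes. By an exact binomial test of reads with Benjamini-Hochberg adjustment over all genes and the same 2-fold limit it was also 0. No list gene reached 2-fold, so neither rule could call one. With no fold limit the binomial test gave 10 of the 34 with an adjusted p under 0.05, and 22.7% of all genes tested. By separate scaled intervals with no fold limit, a rule added after the data were seen, 2 list genes were higher in replicate 2, against 9.21% of all genes, and 1 was lower, against 4.32%. The direction depends on the scaling. With the bounds as deposited, also added after the data were seen, 0 of the 34 were higher in replicate 2, against 2.84% of all genes, and 7 were lower (Idi1, Tm7sf2, Scd2, Elovl1, Elovl5, Fads1 and Fabp5), against 14.6%. Fabp5 is in both sets.

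The 3 genes with separate scaled intervals had small ratios. Hmgcs1 was at 89.9 TPM in replicate 1 and 94.1 in replicate 2, a scaled log2 ratio of 0.14 with a counting SE of 0.0238. Insig1 was at 45.8 and 48.2, a log2 ratio of 0.15 with a counting SE of 0.0365. Fabp5 was at 183 and 159, a log2 ratio of -0.13 with a counting SE of 0.0323. The 5 largest ratios belonged to genes whose scaled intervals overlapped, while as deposited those of Tm7sf2 were separate. They were -0.44 for Tm7sf2, -0.43 for Acacb, 0.27 for Insig2, -0.27 for Acaca and 0.25 for Lss. Within Acaca, the short Acaca-206 of 431 nt, chosen after its values were seen, held 26.1% of the TPM in replicate 1 and 12.8% in replicate 2, while Acaca-201 was at 6.41 and 6.08 TPM. Within Lss, the retained-intron Lss-205 of 425 nt was at 2.51 and 6.63 TPM, while the coding Lss-201 went the other way, at 10.6 and 9.70. Within Insig2, the coding Insig2-214 of 674 nt was at 1.88 and 5.34 TPM, while Insig2-201 went the other way, at 13.9 and 12.5. Lss-205 and Insig2-214 were also chosen after their values were seen. The part of the short forms in the ratios of these genes was not tested.

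By group, the median log2 ratio of replicate 2 over replicate 1 was 0.07 for sterol genes, with 7 lower and 10 higher, and -0.05 for fatty acid genes, with 10 lower and 4 higher. For the regulators it was 0.04, with 0 lower and 5 higher. These groups include genes under 5 TPM. All genes averaging at least 1 TPM had a median of 0.006, and 48.3% of them were lower in replicate 2. All genes averaging at least 5 TPM had a median of 0.01, and 44.7% of them were lower in replicate 2. Their 5th and 95th percentiles were -0.24 and 0.22, and 4 of the 34 list genes lay outside. Scaling put 0.07 on replicate 2, so on TPM as deposited the medians were -0.004 for sterol genes, -0.13 for fatty acid genes and -0.03 for regulators, and the sign for sterol genes and regulators depends on it. The signs and sizes here compare 2 pools and have no replicate check.

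**Figure D5:**
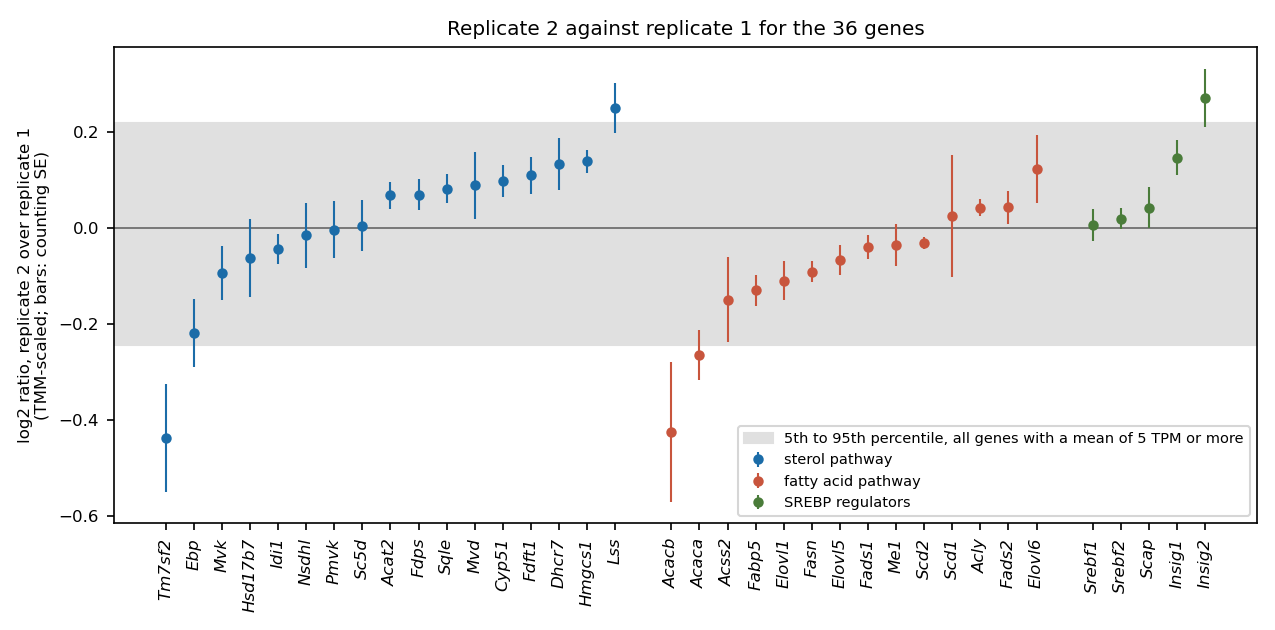
TMM-scaled log2 ratio of replicate 2 over replicate 1 for each of the 36 genes by group, with bars of 1 counting SE; the grey band runs from the 5th to the 95th percentile of all genes averaging at least 5 TPM. Of the 34 genes with that mean, Tm7sf2, Acaca, Lss and Insig2 lie outside the band.

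Some markers of other tissues differed between the pools by more than any of the 36 genes. Lung epithelium, mesenchyme and endothelium markers were all detected, 6 of 6, 6 of 6 and 5 of 5, with scaled sums of replicate 2 over replicate 1 of 0.906, 0.989 and 1.02. The epithelial sums of 7755 and 6690 TPM were mostly Sftpc, at 6881 and 5864. By scaled ratios 3 of the epithelial markers were lower and 3 higher in replicate 2. Of 8 liver markers 6 were detected and the same 6 (Afp, Apoa2, Apoa1, Alb, Ahsg and Serpina6) were called apart, and their list summed to 33.3 TPM in replicate 1 and 155 in replicate 2. Of 6 T cell and thymus markers 3 (Lck, Cd3g and Cd3e) were called apart, with list sums of 58.2 and 13.9 TPM. Of 5 muscle markers 4 (Myl2, Myl3, Myh7 and Acta1) were called apart, with list sums of 99.3 and 278 TPM. Red cell markers summed to 27575 and 29209 TPM. The part of these tissues in the small ratios of the list genes was not tested.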

How the data were processed

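A note deposited with the files names mm10 and GENCODE M4. The expected counts deposited by the authors are estimated reads per gene or transcript and need not be whole. The deposited TPM, per the file headers, is scaled to 1000000 over all features including spike-ins, and the deposited FPKM is scaled by effective length and library size. The deposited percent is the share of a gene's TPM held by a transcript. The deposited interval bounds of the TPM, a signal that is never negative, lie around a posterior mean TPM, and their level is not stated; a TPM can lie outside its own interval. Program, version and strand use: not given in the sources used here.

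Genes were matched by identifier to GENCODE M21 (GRCm38), with 97.96% of Ensembl identifiers named, and all 36 list genes were found. All 158 of their transcripts were named, 140 with the same length in M21. Reads in features that name no gene made up 0.000176% and 0.00018% of the estimated reads, spike-ins 2.14% and 2.37%, and both stayed out of library sizes. Rounded expected counts were scaled by TMM (edgeR 4.0.16, R 4.3.3), with DESeq2 1.42.0 size factors as an alternative. Intervals cover counting and read assignment only, as reads lacking molecular identifiers cannot be taken for separate molecules. Counting SEs cover counting alone and leave out read assignment. Other steps ran in Python 3.11.15 with scipy 1.17.1.

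The 36 genes, the other lists, the pairs and the tests were chosen with earlier results of these data known. Values per library are given for the 3 highest and the lowest gene of each group, every regulator, every gene of a pair, every gene called apart and the 5 largest ratios, and from the other lists for the highest 2, the lowest and any called apart. Transcripts are named where they hold 20% or more in both libraries. Srebf1-207, Acaca-206 and the genes with overlapping exons fall outside these rules and were chosen after their values were seen. Results for some genes outside the 36 are not reported here. A single group of 2 pools allows no test of a condition, and each pool has 1 library, so pool and library preparation cannot be told apart. Alternatives covered detection limits, TPM type, coding transcripts, scaling, pseudocount, filters, single libraries and rules for calling.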

Additional observations from a re-analysis of the deposited data

How the results depend on the processing

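All 36 genes were detected under minimums of 0.5 TPM, by posterior mean TPM and in each library alone (36 to 36), and 34 at a minimum of 5 TPM. Detection was not counted over protein-coding transcripts, where Acacb had 1.17 TPM in replicate 1 and 0.660 in replicate 2, the latter below 1 TPM. The ratio of the sterol to the fatty acid median was 0.650, and 0.646 to 0.654 with 1 library left out. It was 0.872 without Fabp5, 1.21 by geometric means, which turns the order, and 0.669 over protein-coding transcripts, a setting added after the data were seen; the cause was not tested. The median of the regulators, 47.0 TPM, was 49.5 by FPKM scaled over Ensembl genes and 36.4 over protein-coding transcripts, where the noncoding Srebf1-204 drops out, and 45.8 to 48.2 with 1 library left out. The medians of the other groups, 34.6 and 53.25 TPM, ranged from 32.6 to 36.6 and from 50.5 to 56.0 with 1 library left out. No list gene was called apart under a 1.5-fold limit, other minimum means, DESeq2 size factors, no scaling, the binomial test or no interval criterion. All of these keep a fold limit that no list gene reached, so they are not separate checks. With no fold limit, looser by construction, 3 had separate intervals after scaling and 7 as deposited; these settings and that with no scaling were added after the data were seen. Under each scaling, pseudocount and filter tried, the median log2 ratios moved by less than a limit set for each group. It was 0.104 for sterol genes, 0.0735 for fatty acid genes and 0.0716 for regulators, wider than 1 median counting SE of the group's genes. Leaving out the scaling moved each median by 0.0715, close to the last 2 limits, and turned the sign for sterol genes and regulators. Among ratios of pairs 6 of 44 alternative values, and among shares of leading transcripts 13 of 69, moved by more than the SD of the libraries. These totals include values from 1 library alone, which cannot lie beyond that SD when n = 2. Only the other alternatives could move, so the totals understate how often values moved. Ratios of Srebf2 to Srebf1 and Acaca to Acacb over coding transcripts moved by over 1.5 times. No paired analysis was possible because there is a single group. Depth does not limit detection of the list genes, the scarcest of which had 162 reads. Short forms that rest on few reads enter the transcript shares, and with them the levels, of genes such as Acacb, Tm7sf2, Acaca, Lss, Hsd17b7 and Insig2. Srebf1-204 rests on 146 and 131 estimated reads. The effect of depth on these shares and levels was not tested.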
